A study of Mus musculus with 6 samples.

Results

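The ligands and receptors of the tumour necrosis factor (TNF) superfamily were examined in natural killer (NK) cells of the spleen. Members were the gene rows whose symbol begins with Tnfsf or Tnfrsf, together with Fasl, Fas, Cd40lg, Cd40, Cd70 and Ltbr, and the rule leaves out Tnf, Lta, Ltb and Cd27. It found 36 of the 27763 rows in the table, of which 15 are ligand rows and 21 receptor rows. Among the ligand rows are Tnfsf13os, an antisense transcript, and Tnfsfm13, a read-through gene that joins Tnfsf12 to Tnfsf13, so neither is a ligand gene of its own. Tnfsf18, Tnfrsf11b and Tnfrsf17 were not analysed here.

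The RNA came from spleens of wild-type C57BL/6 mice aged 6 weeks, and every library shares this strain, genotype, age and tissue. The 2 groups, cNK and DN NK, have 3 libraries each and differ only in the NK population taken. The labels spell out neither abbreviation, give no surface markers for the populations, and leave it unsaid if replicates are separate mice or pools. The p-values therefore reflect the variation among these libraries, which may be technical. In bulk RNA, fewer cells of a type and less RNA per cell cannot be told apart.

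Proteins of this family act mostly between neighbouring cells. The ligands form trimers on the cell surface or after release, and bind receptors that either carry a cytoplasmic death domain, which can start apoptosis, or recruit TRAF adaptors that lead to NF-kappaB and MAP kinase signalling. NK cells are known to kill through Fas ligand and TRAIL beside their granules, and several receptors of the family act as costimulators on activated lymphocytes.

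The libraries held 79798234 to 89526647 estimated counts. Levels are given as FPKM, fragments scaled to transcript length and to the depth of the library, which allows levels of different genes to be compared. Fold changes are of DN NK over cNK, from the quasi-likelihood test of edgeR applied to estimated counts, with Benjamini-Hochberg adjustment over all tested rows, and a gene is said to have risen or fallen where the adjusted p was under 0.05. All 7 NK markers (Ncr1, Klrb1c, Nkg7, Prf1, Gzma, Eomes and Tbx21) were above 1 FPKM in every library and lower in DN NK, with summed levels of 6372 to 7055 FPKM in cNK and 1624 to 1953 FPKM in DN NK. Markers of several other cell types were higher in DN NK. The 9 B cell markers summed to 0.932 to 1.28 FPKM in cNK and 28.9 to 44.2 FPKM in DN NK, and the 8 T cell markers to 12.1 to 14.4 FPKM and 68.3 to 69.7 FPKM. In DN NK the T cell sum was mostly Cd3d (means 4.54 in cNK and 38.5 in DN NK) and Cd3g (3.39 and 17.3). Cd8b1 overlapped near 0 (0.0372 and 0.0272). Used here for ILC2 and ILC3, innate lymphoid cells of types 2 and 3, were 4 markers at a sum of 0.0985 to 0.118 FPKM in cNK and 2.20 to 3.14 FPKM in DN NK, with Ccr6 at 0 in every cNK library, and the 4 plasma cell markers summed to 0.469 to 0.932 and 5.05 to 8.08 FPKM. The 7 monocyte and macrophage markers summed to 6.58 to 7.46 FPKM in cNK and 6.07 to 6.86 FPKM in DN NK, mostly Cd68 (means 5.82 and 4.90). The 5 dendritic cell markers summed to 184 to 197 and 126 to 137 FPKM, nearly all of it Itgax (means 188 and 124). Of these 5, Itgax was lower in DN NK without overlap, and 3 others were higher, where all rows gave 20.6% lower and 21.8% higher. The 4 markers of stroma and endothelium summed to 10.7 to 11.8 and 14.6 to 15.5 FPKM, mostly Pecam1 (means 11.2 and 14.9). The 3 neutrophil markers were at 0 in every cNK library and summed to 0.151 to 0.436 FPKM in DN NK, and Foxp3, the marker of regulatory T cells, stood at 0.0146 to 0.0489 and 0.0457 to 0.0886 FPKM. The part of these cells in the results below was not tested.

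Fasl, the most abundant of the ligand rows taken here, was lower in DN NK. At 1 FPKM or more in all 3 libraries were 19 members in cNK and 25 in DN NK. Of all rows, 21372 to 21531 were above 0 in the cNK libraries and 22496 to 23065 in the DN NK libraries. All rows at 1 FPKM were not counted by group, so nothing is read from the 19 and 25. Over the whole list, in a fit with no filter on low values, 17 of the 36 members were higher, 6 were lower and 13 did not pass, which is 47.2% higher and 16.7% lower. Over all 27763 rows, of which many are close to 0, the same fit called 15.3% higher and 16.0% lower. With a filter that asks for 1 FPKM or more in 3 or more libraries, 26 members were tested, and 14 were higher, 5 lower and 7 not past, where 30.8% of all 11690 tested rows were higher and 30.9% lower. Of these 26, Tnfsf4, Tnfsf11, Ltbr, Tnfrsf10b, Tnfrsf21 and Tnfrsf25 passed the filter only through DN NK and Tnfrsf22 only through cNK, so these had to differ. Past the threshold and at least 2-fold changed were 11 higher members and 1 lower, against 7.90% and 4.69% of tested rows, a count that the filter shapes in the same way. The FPKM of the groups did not overlap in 17 of the 36 members with DN NK higher and in 8 with DN NK lower, where all rows gave 21.8% and 20.6%. The 18 members at 1 FPKM or more in all 6 libraries gave 38.9% higher and 22.2% lower, against 29.8% and 31.5% of the 10182 rows at such levels, so at these levels the shares lie near the background. Their median log2 fold change was 0.12, against -0.03 for those rows. The plot of log2 fold changes orders the tested members.

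**Figure D1:**
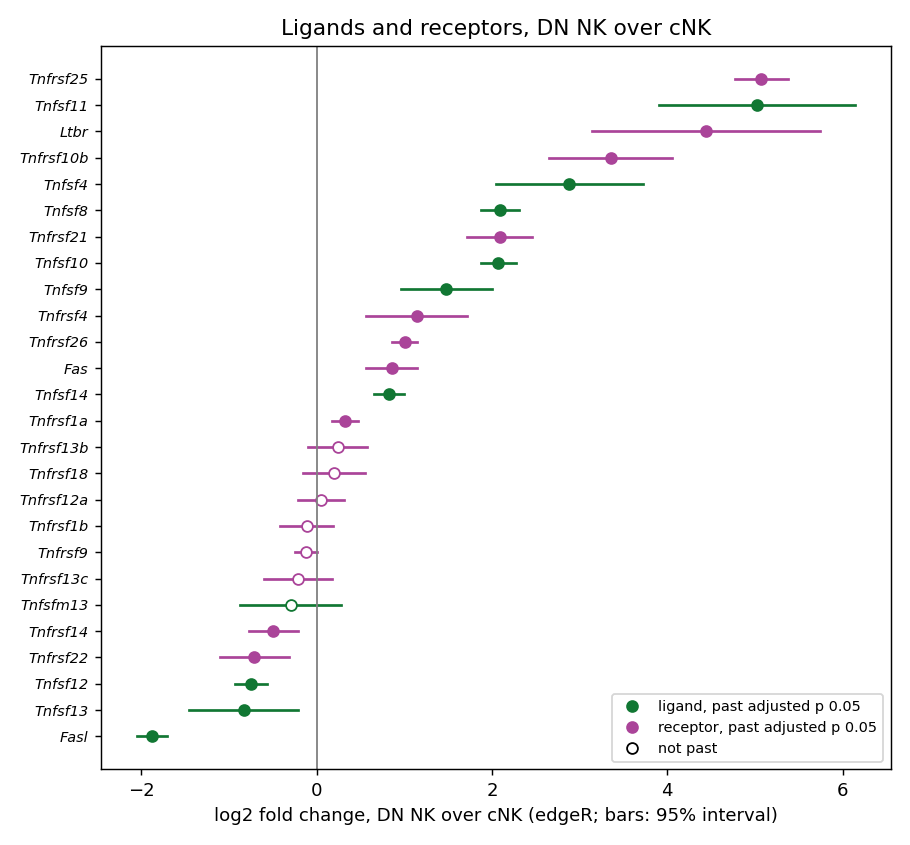
Log2 fold changes (DN NK over cNK, horizontal axis) of the 26 tested members from edgeR, with bars for the 95% interval; green marks ligands, purple receptors, and open circles members that did not pass an adjusted p of 0.05. Tnfrsf25 at 5.07 and Tnfsf11 at 5.02 stand at the top, Fasl at -1.87 at the bottom.

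Ligands known for killing went in opposite directions. Fasl encodes Fas ligand, which triggers apoptosis through Fas on the target cell. It stood at 126, 151 and 147 FPKM in cNK replicates 1, 2 and 3 and at 33.6, 38.4 and 38.7 FPKM in DN NK replicates 1, 2 and 3. Every DN NK library thus lay far below every cNK library, and Fasl fell 3.67-fold (log2 fold change -1.87, SE 0.08, adjusted p = 4.82e-07). Fasl still remained the most abundant of the ligand rows taken here in both groups. Tnfsf10 encodes TRAIL, the death ligand read by Tnfrsf10b in the mouse. Its cNK libraries lay at 1.87, 2.00 and 2.03 FPKM and its DN NK libraries at 6.90, 8.42 and 8.51 FPKM. The groups did not overlap, and Tnfsf10 rose 4.21-fold, or by 2.07 ± 0.09 (SE) on the log2 scale (adjusted p = 6.10e-07). In DN NK the mean level of Fasl, 36.9 ± 2.87 FPKM, still exceeded that of Tnfsf10, 7.94 ± 0.903 FPKM (SD, n = 3 each).

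The stretches of 250 bases before the start sites of these ligand genes and of Tnfrsf25 are shown because Fasl had the largest fall among tested members, Tnfsf10 is the other death ligand and rose, and Tnfrsf25 had the largest fitted rise among tested receptors. They are from RefSeq on GRCm38.p6, written on the strand of each gene, at chr1:161788496-161788745 on the minus strand for Fasl, chr3:27316827-27317076 on the plus strand for Tnfsf10 and chr4:152115684-152115933 on the plus strand for Tnfrsf25 (the first of 2 listed starts). Capitals mark a match to a searched motif.
Fasl: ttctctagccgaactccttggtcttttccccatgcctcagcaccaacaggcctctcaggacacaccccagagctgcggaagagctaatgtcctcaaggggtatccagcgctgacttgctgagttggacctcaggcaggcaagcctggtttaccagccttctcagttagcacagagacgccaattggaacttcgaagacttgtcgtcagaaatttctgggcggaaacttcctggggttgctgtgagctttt
Tnfsf10: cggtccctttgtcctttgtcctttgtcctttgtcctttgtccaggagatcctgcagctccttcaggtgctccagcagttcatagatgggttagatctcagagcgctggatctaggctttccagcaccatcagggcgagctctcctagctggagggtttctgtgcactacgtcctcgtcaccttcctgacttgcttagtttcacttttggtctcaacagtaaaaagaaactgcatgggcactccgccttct
Tnfrsf25: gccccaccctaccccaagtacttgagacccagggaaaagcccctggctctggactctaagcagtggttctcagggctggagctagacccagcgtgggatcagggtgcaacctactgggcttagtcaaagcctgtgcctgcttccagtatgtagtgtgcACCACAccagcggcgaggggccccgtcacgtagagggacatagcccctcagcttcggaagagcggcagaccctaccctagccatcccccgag
Such a stretch was at hand for 26 of the 36 members and for 27025 genes in all, 1 per gene. On both strands it was searched for the T-box motif AGGTGTGA, the RUNX motif TGTGGT, the interferon response motif (GAAA blocks with any pair of bases between) and the kappaB motif. The T-box letters occurred in none of the 26 members and in 1.14% of all genes. The RUNX letters occurred in 3 members (Tnfrsf13c, Tnfrsf25 and Tnfsf13), or 11.5%, and in 14.2% of all genes. In Tnfrsf25 they lie on the opposite strand, beginning 92 bases before the start. The interferon motif occurred in Tnfrsf14 and Tnfrsf1b (7.69% of members, 3.04% of all genes) and the kappaB motif in Tnfrsf8 (3.85% and 3.75%). These are matches of letters in short windows and describe no binding.

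Tnfsf14, Tnfsf8 and Tnfsf9, the genes of ligands that costimulate lymphocytes, rose in DN NK. Tnfsf14 encodes LIGHT, which binds the receptors of Tnfrsf14 and Ltbr. It was read at 18.6, 16.4 and 16.3 FPKM in cNK and at 28.7, 30.3 and 28.5 FPKM in DN NK. It rose 1.78-fold with no overlap (SE 0.07 on the log2 scale, adjusted p = 2.74e-05). Among the ligand rows taken here Tnfsf14 was second by level in DN NK, where Tnfsf12 held that place in cNK. Tnfsf8 encodes CD30 ligand. Its libraries lay at 1.29, 1.56 and 1.35 FPKM in cNK and at 5.84, 5.70 and 5.66 FPKM in DN NK, a 4.27-fold rise (adjusted p = 8.84e-07). Tnfsf9, the gene of 4-1BB ligand, had 1.19, 1.10 and 1.44 FPKM in cNK and 4.03, 3.51 and 2.42 FPKM in DN NK. Its DN NK libraries were spread more widely but all lay above cNK, and it rose 2.79-fold (95% interval 1.95 to 3.99, adjusted p = 0.000545). A noncoding gene on the opposite strand, Gm11110, shares 14.9% of the exonic bases of Tnfsf9, and its mean was 2.47 FPKM in cNK and 1.49 FPKM in DN NK.

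The OX40 ligand gene Tnfsf4 and the RANK ligand gene Tnfsf11 were close to absent in cNK. Both passed the filter only through DN NK and so had to differ, which limits what their p-values add. Tnfsf4 measured 0.189, 0.451 and 0.244 FPKM in cNK and 2.60, 2.18 and 1.49 FPKM in DN NK, a 7.38-fold difference (95% interval 4.14 to 13.2, adjusted p = 0.000241). Tnfsf11, known from osteoclast formation and from lymphoid tissue inducer cells, measured 0.0655, 0.170 and 0.0348 FPKM in cNK and 3.42, 2.74 and 2.51 FPKM in DN NK. It rose 32.5-fold, with a 95% interval of 15.0 to 70.4 (adjusted p = 0.000118), and the cNK level rests on about 15.5 read pairs over the 3 libraries. Without cNK replicate 2, the highest of these, its log2 fold change was 5.79, or 55.4-fold. The 4 markers of ILC2 and ILC3 used here also had higher FPKM in DN NK without overlap, as did 21.8% of all rows. Their DN NK means were 0.181 (Il1rl1), 0.155 (Il17rb), 1.47 (Il23r) and 0.912 FPKM (Ccr6). None reached 1 FPKM in all DN NK libraries. The part of such cells in the Tnfsf11 level was not tested.

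Summed over its rows, the Tnfsf12 and Tnfsf13 locus on chromosome 11 was lower in DN NK. Tnfsf12 encodes TWEAK, a ligand that acts on tissue cells, and Tnfsf13 encodes APRIL, a survival factor for plasma cells. Tnfsf12 measured 22.8, 26.3 and 27.9 FPKM in cNK and 14.3, 14.1 and 15.6 FPKM in DN NK, and fell 1.68-fold (adjusted p = 7.64e-05). Tnfsf13 measured 2.00, 2.99 and 4.42 FPKM in cNK against 1.58, 1.60 and 1.86 FPKM in DN NK, and fell 1.78-fold (adjusted p = 0.0262). That call did not hold without cNK replicate 2 or 3 or any 1 of the DN NK replicates, where adjusted p reached 0.0536 to 0.0856. Tnfsfm13 measured 10.3, 5.89 and 6.00 FPKM in cNK and 5.75, 5.75 and 5.88 FPKM in DN NK, with a log2 fold change of -0.30 that did not pass (adjusted p = 0.316). The exons of Tnfsfm13 share 731 bases with Tnfsf12 and 983 with Tnfsf13, so reads can be assigned to either row. In cNK replicate 1 the read-through row took 37.9% of the estimated counts of the 3 rows, against 22.8% and 21.3% in the other cNK libraries and 33.0 to 34.9% in DN NK. Summed, the 3 rows held 6260, 5753 and 6096 estimated counts in cNK and 3505, 3446 and 3691 in DN NK. The sum was 1.53-fold lower in DN NK (log2 fold change -0.61, SE 0.06, adjusted p = 3.55e-05), in a fit chosen after the split between rows had been seen.

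**Figure D2:**
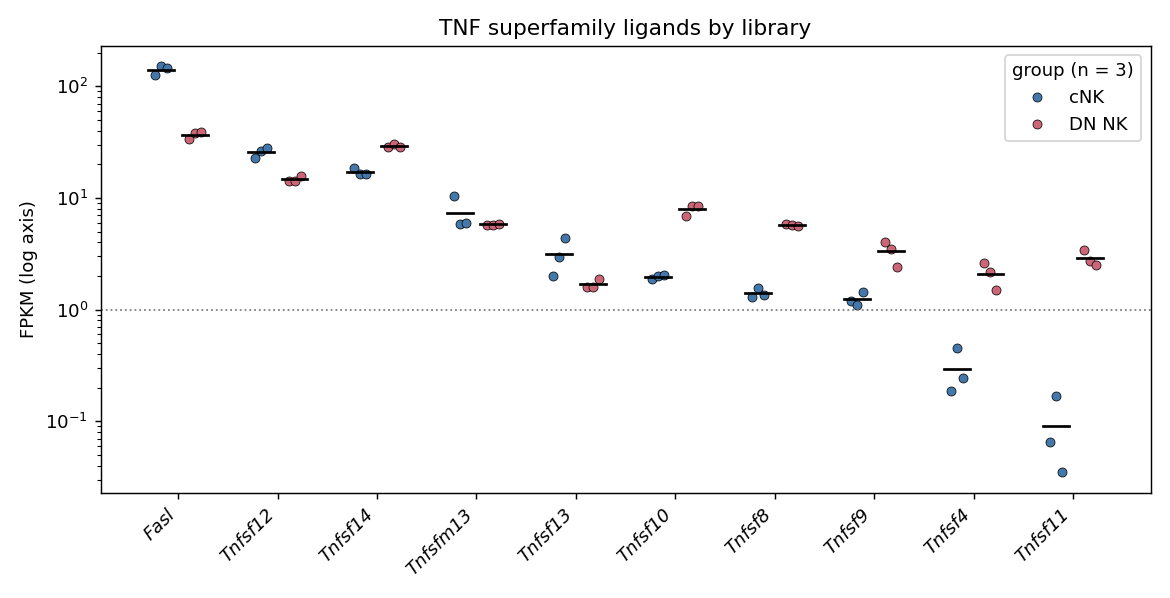
FPKM (log axis) of the 10 tested ligand rows in each library, ordered by their cNK mean; points are libraries, short lines group means (n = 3 each), and the dotted line marks 1 FPKM. Fasl lies at 126 to 151 in cNK and 33.6 to 38.7 in DN NK, and Tnfsf4 and Tnfsf11 lie below the dotted line in cNK only.

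The other 5 ligand rows stayed below 0.3 FPKM in every library. Cd40lg, the gene of the T cell helper ligand CD40L, had a mean of 0.0196 FPKM in cNK and 0.0537 FPKM in DN NK, which is about 2 and 5 read pairs. Tnfsf13b, the gene of the B cell survival factor BAFF, stood at 0.0333 and 0.0325 FPKM. Cd70 and Tnfsf15 were at 0 in all cNK libraries. Set against a floor of 3 read pairs for the summed cNK libraries, the fold was 2.87 for Cd70 and 3.80 for Tnfsf15. These folds rest on about 7.8 and 10.2 read pairs in DN NK, whose counting error they leave out. Cd70 was also at 0 in DN NK replicate 3 and did not pass without a filter (adjusted p = 0.0681), whereas Tnfsf15 did (adjusted p = 0.0140). The antisense row Tnfsf13os had 0.155 FPKM in cNK and 0.0829 FPKM in DN NK.

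Because FPKM is scaled to length, the ligand rows can be added. They summed to 200 ± 13.4 FPKM in cNK and 110.5 ± 2.99 FPKM in DN NK (SD, n = 3 each). Fasl made up 68.3, 72.6 and 71.0% of that sum in cNK replicates 1, 2 and 3 and 31.3, 34.0 and 34.8% in the DN NK replicates. Tnfsf14 took 7.85 to 10.1% in cNK and 25.6 to 26.8% in DN NK. Without Fasl the remaining ligand rows summed to 58.5 ± 1.42 FPKM in cNK and 73.6 ± 0.972 FPKM in DN NK. For all of these the groups did not overlap, and a 2-sided exact permutation test gave p = 0.1, the smallest that 3 libraries against 3 allow, so that no such sum can pass a threshold of 0.05. The same p held for each of 6 sums and shares tested, before and after adjustment.

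**Figure D3:**
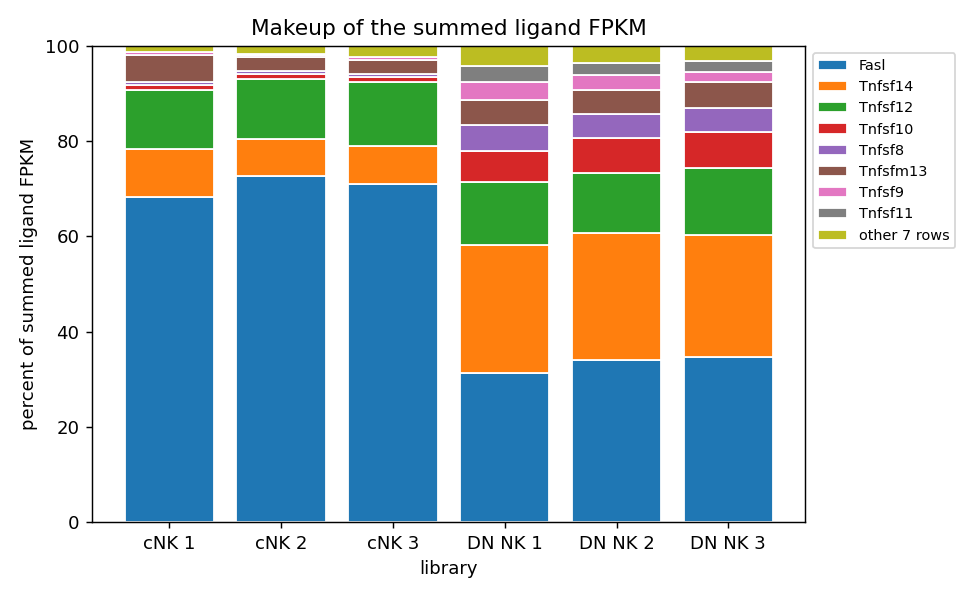
Share of each ligand row in the summed ligand FPKM of a library, in percent, with 1 bar per library. Fasl (bottom segment) fills 68.3 to 72.6% of the cNK bars and 31.3 to 34.8% of the DN NK bars, where Tnfsf14, Tnfsf10 and Tnfsf8 take more room.

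Tnfrsf25, Tnfrsf10b, Tnfrsf21, Fas and Tnfrsf1a encode receptors with a death domain, and their rises ranged from 1.25-fold to 33.6-fold. This grouping was made after the values had been seen, the first 3 passed the filter only through DN NK and so had to differ, and 30.8% of all tested rows rose, so nothing is read from their number. Tnfrsf25 encodes DR3, the receptor for the ligand of Tnfsf15 and a costimulator of T cells and innate lymphoid cells. It stood at 0.369, 0.272 and 0.365 FPKM in cNK and at 10.8, 10.8 and 11.5 FPKM in DN NK. It rose 33.6-fold, with a 95% interval of 27.3 to 41.5 (adjusted p = 7.60e-08), while the gene of its ligand was at 0 in cNK and at 0.0419 FPKM in DN NK. Tnfrsf10b, the TRAIL receptor gene, had 0.623, 0.336 and 0.364 FPKM in cNK and 4.97, 3.73 and 4.37 FPKM in DN NK. It rose 10.2-fold (95% interval 6.29 to 16.6, adjusted p = 0.000125). Tnfrsf21, which encodes DR6, had 0.825, 0.734 and 0.561 FPKM against 2.76, 3.10 and 2.79 FPKM, a 4.25-fold rise (adjusted p = 1.21e-05). Fas itself was at 1.80, 1.88 and 1.68 FPKM in cNK and 3.40, 2.99 and 2.91 FPKM in DN NK, and rose 1.81-fold (adjusted p = 0.000492). Tnfrsf1a, the gene of the widely expressed TNF receptor 1, measured 23.3, 21.4 and 22.0 FPKM in cNK and 25.2, 28.2 and 26.7 FPKM in DN NK. The groups lay close but apart, and it rose 1.25-fold (adjusted p = 0.00224).

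Among receptors that signal through TRAF adaptors, Tnfrsf1b, Tnfrsf18, Tnfrsf9 and Tnfrsf12a did not pass the test. Others did, with Tnfrsf4 and Ltbr higher and Tnfrsf14 lower, as given below. Tnfrsf1b, the gene of TNF receptor 2, was the most abundant of the receptor rows taken here in both groups. It stood at 79.3, 58.0 and 63.1 FPKM in cNK and 58.1, 59.4 and 60.3 FPKM in DN NK. The highest value is that of cNK replicate 1, the groups overlapped, and the log2 fold change of -0.11 did not pass (95% interval -0.41 to 0.19, adjusted p = 0.455). Tnfrsf18 encodes GITR, a costimulator found on regulatory T cells and activated lymphocytes. It measured 25.9, 25.5 and 27.1 FPKM in cNK and 35.3, 26.9 and 24.0 FPKM in DN NK, with an interval of -0.16 to 0.55 on the log2 scale (adjusted p = 0.285). An antisense gene, Gm16008, shares 27.2% of its exonic bases and stood at 1.46 FPKM in cNK and 4.66 FPKM in DN NK, and without strand the reads cannot be told apart. Tnfrsf9, the 4-1BB gene, was read at 18.3, 20.7 and 19.7 FPKM in cNK and 17.1, 17.2 and 17.5 FPKM in DN NK. Its log2 fold change of -0.12 did not pass (adjusted p = 0.0864), but passed as lower in 5 alternatives, at values of -0.15 to -0.20. Tnfrsf12a, the TWEAK receptor gene Fn14, had 9.65 ± 1.15 and 9.56 ± 0.140 FPKM, with an interval of -0.22 to 0.31 (adjusted p = 0.746).

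The receptors of LIGHT moved apart. Tnfrsf14, which encodes HVEM, measured 10.2, 10.8 and 10.6 FPKM in cNK and 5.90, 7.19 and 8.45 FPKM in DN NK. All DN NK libraries were lower, and it fell 1.41-fold (adjusted p = 0.00765). Ltbr encodes the lymphotoxin beta receptor, known from stromal and myeloid cells. It measured 0.146, 0.0944 and 0.0165 FPKM in cNK and 1.73, 1.98 and 1.88 FPKM in DN NK, and rose 21.8-fold (95% interval 8.84 to 53.6, adjusted p = 0.000472). The cNK level rests on about 15.8 read pairs. Ltbr passed the filter only through DN NK and so had to differ, which limits what its p-value adds. Without cNK replicate 1 its log2 fold change was 5.06, or 33.4-fold. Of the 7 monocyte and macrophage markers, 1 was higher and 1 lower in DN NK without overlap, of 5 dendritic cell markers 3 and 1, and of 4 markers of stroma and endothelium 2 and none. All rows gave 21.8% higher and 20.6% lower, so nothing is read from these counts. The higher markers were Lyz2, Flt3, Zbtb46, Xcr1, Pdgfrb and Pecam1. Their DN NK means were 0.988, 0.0286, 6.42, 0.0781, 0.0584 and 14.9 FPKM. Cd68 and Itgax were lower. The part of these cells in the rise of Ltbr was not tested. The OX40 gene Tnfrsf4 had 1.08, 0.599 and 1.12 FPKM in cNK and 1.96, 1.82 and 2.18 FPKM in DN NK, and rose 2.21-fold (adjusted p = 0.00425).

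Tnfrsf13c and Tnfrsf13b, receptor genes typical of B cells, did not pass the test, in libraries where B cell markers were higher. Tnfrsf13c, the BAFF receptor gene, had 1.72, 1.40 and 1.95 FPKM in cNK and 1.44, 1.23 and 1.51 FPKM in DN NK, and did not pass (95% interval of the log2 fold change -0.60 to 0.17, adjusted p = 0.298). Tnfrsf13b, the TACI gene, had 1.31 ± 0.167 and 1.48 ± 0.125 FPKM and did not pass either (interval -0.10 to 0.58, adjusted p = 0.185). For comparison, the means of the 9 B cell markers ran from 0.00674 FPKM (Ebf1) to 0.634 FPKM (Cd79b) in cNK. In DN NK they ran from 0.280 FPKM (Cr2) to 11.8 FPKM (Cd79a). Cd40 lay below the filter at 0.00370 FPKM in cNK, which is 1 read pair, and at 0.145 ± 0.0276 FPKM in DN NK. The ratio of its counts was 40.0 with a 95% counting interval of 6.74 to 1625, and without a filter it was called higher (adjusted p = 0.000795).

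Receptors of the Tnfrsf22, Tnfrsf23 and Tnfrsf26 cluster on chromosome 7 include decoys, since the products of the first pair bind TRAIL without a death domain. Tnfrsf26 measured 9.31, 9.20 and 9.16 FPKM in cNK and 17.8, 18.8 and 16.8 FPKM in DN NK, and rose 2.01-fold (adjusted p = 4.26e-06). Its neighbour Tnfrsf22, 6.08 kb away, went down, from 1.37, 1.51 and 1.08 FPKM to 0.630, 0.851 and 0.831 FPKM, or 1.63-fold (adjusted p = 0.00713). Tnfrsf22 passed the filter only through cNK and so had to differ. Tnfrsf23 lay below the filter at 0.495 ± 0.0938 and 0.526 ± 0.0549 FPKM. The members of this cluster are similar copies, so reads may be split between them, and an antisense gene, E230032D23Rik, shares 3.33% of the exonic bases of Tnfrsf26.

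Of the last receptors, Tnfrsf11a, the RANK gene, was at 0 in every cNK library and at 0.393, 0.295 and 0.281 FPKM in DN NK. Against the floor of 3 read pairs its fold was 50.6, with counting error in DN NK (about 136.5 read pairs) left out. It passed without a filter (adjusted p = 4.43e-07). Tnfrsf8, the CD30 gene, had 0.136 ± 0.0601 and 0.0988 ± 0.0235 FPKM. Tnfrsf19 had about 2 read pairs in DN NK and none in cNK, which allows no fold. All receptor rows together summed to 173 ± 12.0 FPKM in cNK and 196 ± 2.86 FPKM in DN NK, and without Tnfrsf1b to 107 ± 0.946 and 137 ± 3.96 FPKM, again without overlap of the groups.

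**Figure D4:**
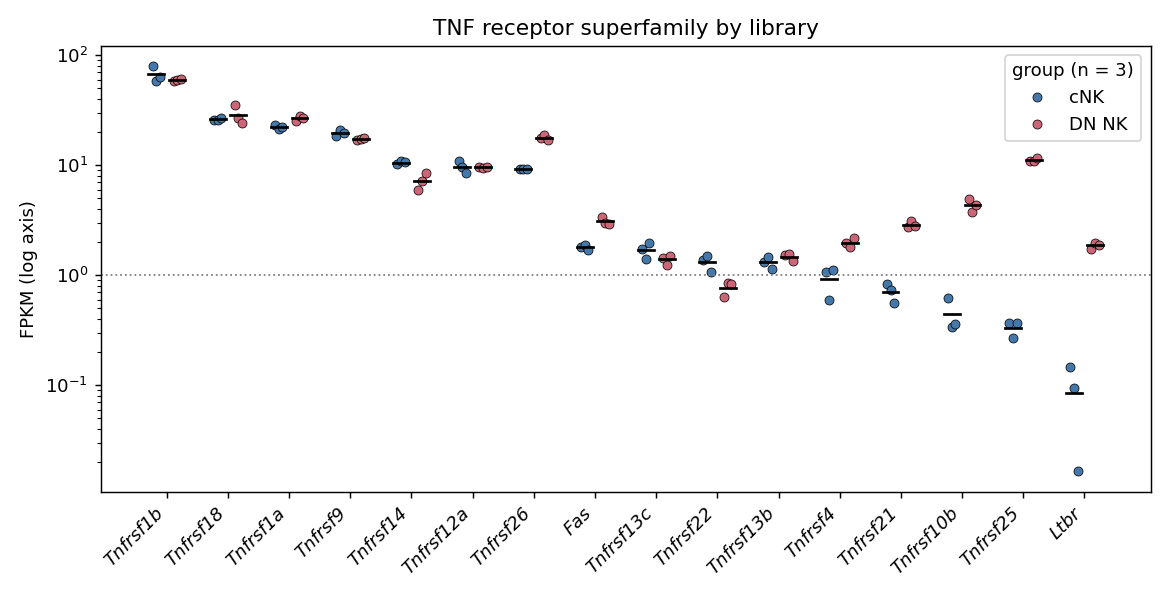
FPKM (log axis) of the 16 tested receptor rows in each library, ordered by their cNK mean; points are libraries, short lines group means (n = 3 each), and the dotted line marks 1 FPKM. The 6 rows to the left of Tnfrsf26 sit near or above 10 FPKM in cNK with folds of at most 1.41, while Tnfrsf25 goes from 0.272 to 0.369 in cNK to 10.8 to 11.5 in DN NK.

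Set side by side, 16 ligand and receptor pairs known from the literature could be formed from the members. In 6 of them both genes were at 1 FPKM or more in all cNK libraries, and in 8 in all DN NK libraries. Both genes rose in 3 pairs, namely Tnfsf10 with Tnfrsf10b, Tnfsf4 with Tnfrsf4, and Tnfsf14 with Ltbr. The genes went in opposite directions in 3 pairs. Fasl fell while Fas rose, and Tnfsf14 and Tnfsf10 rose while Tnfrsf14 and Tnfrsf22 fell. In no pair did both fall. Both genes were tested in 9 of the 16 pairs, the pairs share members, and each pair that rose holds a gene (Tnfrsf10b, Tnfsf4 or Ltbr) that passed the filter only through DN NK, so nothing is read from these counts.

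Members also lie beside each other in the genome. On chromosome 4 lie 7 of the 21 receptor rows. Tnfrsf4 (156013843 to 156016612, plus strand) and Tnfrsf18 (156026164 to 156028895, plus strand) are 9.55 kb apart, and the first rose while the second did not pass. On chromosome 6, Ltbr (125306571 to 125313885, minus strand) lies 35.5 kb from Tnfrsf1a (125349362 to 125362484, plus strand), with folds of 21.8 and 1.25. On chromosome 17, Tnfsf9, Cd70 and Tnfsf14 lie between 57105385 and 57194189, and the outer genes rose while Cd70 stayed near 0. Whether neighbours differed from each other in their change was not tested. Fasl is on chromosome 1 (161780689 to 161788495, minus strand), Tnfsf10 on chromosome 3 (27317028 to 27342427, plus strand) and Tnfrsf25 on chromosome 4 (152115934 to 152120119, plus strand). These are whole-gene spans on GRCm38 as deposited.

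A list of 33 genes of TNF receptor signalling mixes genes that carry the signal inside the cell with others that restrain it. Tnip1 and Cflar are among the latter, so counts over the list give no direction of signalling. All 33 were at 1 FPKM or more in all 6 libraries. Of these 33 genes, 19 rose, 4 fell and 10 did not pass, where 30.8% of all tested rows rose and 30.9% fell. Their median log2 fold change was 0.21, against -0.02 for all tested rows, and 15 of the 19 rises were under 2-fold. Of rows at 1 FPKM or more in all 6 libraries, 29.8% rose and 31.5% fell in the filtered fit. Without a filter 13 of the 33 rose and 5 fell. The 15.3% and 16.0% of all rows that did so include many close to 0 and are no like background. With upper quartile scaling, in both limma fits and without DN NK replicate 1, 14 rose. Traf4, an adaptor of the TRAF family, measured 8.06, 6.60 and 7.22 FPKM in cNK and 26.2, 25.9 and 23.5 FPKM in DN NK, a 3.60-fold rise (adjusted p = 1.51e-06). Tnip1, which encodes a partner of the NF-kappaB inhibitor A20, went from 22.9 ± 2.25 to 76.3 ± 3.77 FPKM, a 3.47-fold rise (adjusted p = 1.77e-06). Tank, the gene of a TRAF-binding adaptor, rose 2.35-fold from 4.82 ± 0.272 to 10.8 ± 0.192 FPKM (adjusted p = 1.09e-06). The 4 that fell were Tradd, Cflar, Ikbkg and Fadd. Tradd, the adaptor of TNF receptor 1 and DR3, fell 1.61-fold from 9.44 ± 0.695 to 5.60 ± 0.323 FPKM (adjusted p = 0.000171). Cflar, the gene of the caspase-8 inhibitor c-FLIP, fell 1.37-fold from 9.84 ± 0.618 to 6.87 ± 0.462 FPKM (adjusted p = 0.000363). Ikbkg fell 1.32-fold from 3.53 ± 0.292 to 2.57 ± 0.441 FPKM (adjusted p = 0.0287). Fadd, the adaptor of Fas, fell 1.26-fold from 2.98 ± 0.357 to 2.26 ± 0.194 FPKM (adjusted p = 0.0342). Fadd was named after its value was seen. The count of 4 was 2 without cNK replicate 2, cNK replicate 3 or DN NK replicate 3, and neither Ikbkg nor Fadd passed in these fits. It was 3 without DN NK replicate 1, where Fadd did not pass, and without DN NK replicate 2, where Ikbkg did not. Casp8, the initiator caspase gene, is counted among the 19 that rose, at 1.09-fold (adjusted p = 0.0401). Its groups overlapped, at 29.6 to 32.0 FPKM in cNK and 31.8 to 32.8 FPKM in DN NK. Without a filter Casp8 did not pass (adjusted p = 0.354).

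**Figure D5:**
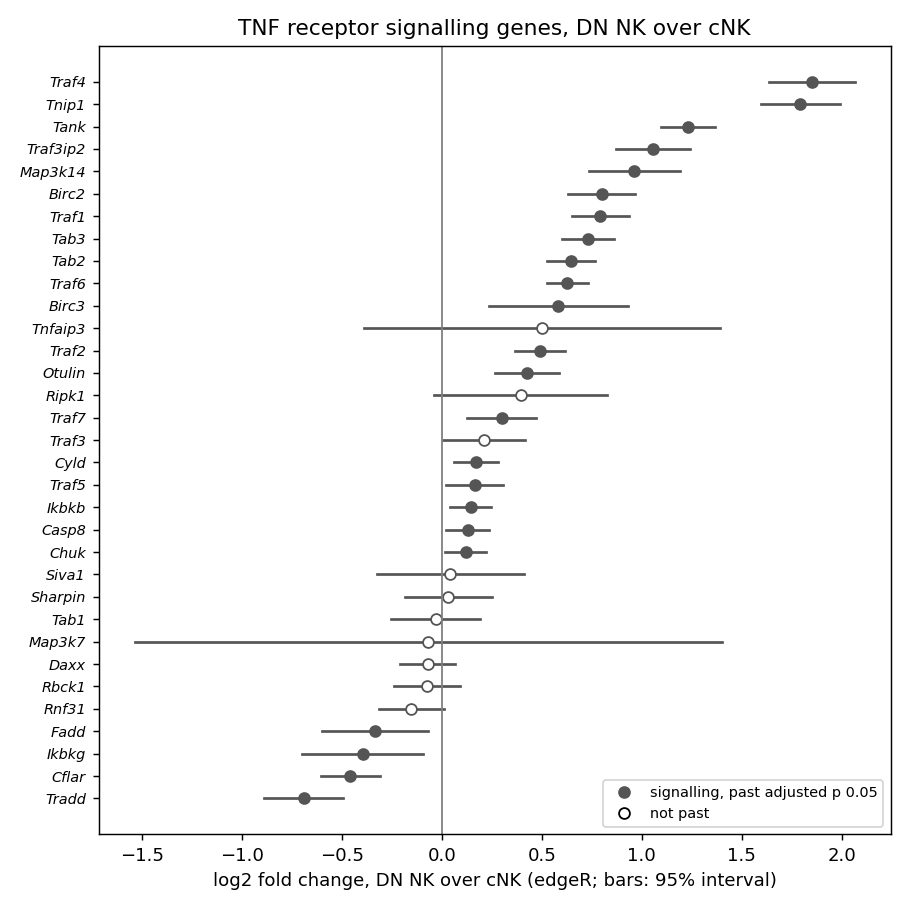
Log2 fold changes (DN NK over cNK, horizontal axis) of the 33 genes of TNF receptor signalling, with bars for the 95% interval from edgeR; open circles did not pass an adjusted p of 0.05. Traf4 at 1.85 and Tnip1 at 1.79 stand at the top and Tradd at -0.69 at the bottom.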

How the data were processed

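Poly(A) RNA of 6 spleen NK cell libraries was made with a TruSeq v2 kit, which does not mark strand, and sequenced as read pairs, per the labels' protocols. HISAT, StringTie, edgeR and the build GRCm38 stand in the submitters' processing notes, and neither versions nor settings are given. The deposited table holds, per the file headers, an FPKM value and a count for every gene row in every library. The deposited counts pile up at 4 in rows with 1 transcript, so they were treated as estimated counts, with 1 read pair worth about 4, and were already whole. Counting intervals built on them cover counting error only, and folds against a floor cover that of cNK only. Groups and columns were taken from the sample titles.

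Rows reaching 1 FPKM in 3 or more of the 6 libraries (11690, holding 99.26% of the estimated counts) were fitted with edgeR 4.0.16 in R 4.3.3 (TMM factors 0.972 to 1.03, robust quasi-likelihood, 2-sided, group as the only term, Benjamini-Hochberg over all rows). SEs are the absolute log2 fold change over the square root of F, and intervals are 95%. Members were not fitted apart. Alternatives were median-ratio and upper quartile scaling, DESeq2 1.42.0, no filter, a mean of at least 5 FPKM, limma 3.58.1 on log2(FPKM + 1) and log2(FPKM + 0.1), counts per read pair, a replicate block and leaving out each library; scripts were tested on simulated data. Members at a mean of at least 5 FPKM, or changed at least 2-fold past the threshold, get a fold change or interval with an adjusted p. So do the 3 largest changes each way of the signalling list. Other members and markers given with values were chosen after these were seen. The members and lists were chosen with earlier results of these data known. All 36 identifiers were found in GENCODE M21, 30 with the same span. Some markers of the planned lists are not reported here.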

Additional observations from a re-analysis of the deposited data

How the results depend on the processing

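Of the 26 tested members 19 passed, and 18 of these kept direction and call in all alternatives that could test them; Tnfsf13 is the exception, given above. With a mean of at least 5 FPKM over the 6 libraries fewer rows are tested, and 1 ligand was higher, 3 receptors higher and 1 lower, 2 signalling genes lower, and 2278 and 2336 of all rows higher and lower, against 6, 8, 2, 4, 3602 and 3613. Without each library in turn, 2 to 4 signalling genes were lower. Tnfrsf9 passed as lower with upper quartile scaling (-0.20), limma (-0.17 and -0.18), no filter (-0.18) and without cNK replicate 1 (-0.15). With FPKM divided by TMM factors, added after the data were seen, DN NK exceeded cNK by 17.3 FPKM for ligands without Fasl and by 34.6 FPKM for receptors without Tnfrsf1b, against 15.1 and 30.5. Same-numbered libraries correlated in their deviations from the group means at 0.05, 0.04 and 0.16, and differently numbered ones at -0.10 to 0.06. With 3 libraries per group these values cannot tell if same-numbered libraries are paired. With the replicate block, 3585 rows were higher and 3637 lower, with 6 ligands and 8 receptors higher, 3 and 2 lower, and 17 signalling genes higher. Levels under 0.2 FPKM rest on few read pairs, which limits the folds of Tnfsf11 and Ltbr.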
